A study of Mus musculus with 15 samples.

Results

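Late pachytene spermatocytes are the germ cells that have finished pairing their chromosomes and are about to enter the meiotic divisions. They were picked here from single-cell RNA sequencing of dissociated testes by transcripts that mark the stage. A cell was a member if it held at least 3 UMIs (unique molecular identifiers, each standing for 1 captured RNA molecule) summed over Pou5f2, 4930581F22Rik, 4932702P03Rik, Chdh and Pabpc6, called the late markers below. It also needed no fewer UMIs of these than of 5 mid-pachytene genes (Gm12648, Gm10619, Gm14244, 2700054A10Rik and Piwil1) and fewer than 3 detected genes among 6 division genes (Aurka, Cdk1, Rhcg, Dnaic2, Spc25 and Nkx2-4). Of 76494 cells that passed the quality limits, 3760 (4.92%) were members. For comparison, 6593 cells fell on the mid-pachytene side of these limits and 4755 on the division side, and the 3 classes together are called staged spermatocytes.

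The cells came from 15 DBA/2J male mice in 5 groups of 3, with 1 library per mouse. The treatment group (T) received the bromodomain inhibitor (+)-JQ1 at 50 mg/kg by daily intraperitoneal injection for 3 weeks, and testes were taken straight afterwards at 10 weeks of age. Its vehicle control (VC-T) was injected with vehicle and taken at the same age. The recovery group (R) had the same JQ1 course and was taken 6 weeks after the last dose at 16 weeks of age, with a vehicle control (VC-R) of that age. Untreated controls (UC) were 15 weeks old, so age differed between T and UC and cannot be told apart from treatment in that comparison. JQ1 was given to the whole animal and binds the bromodomains of BRD2 and BRD3 as well as that of the testis protein BRDT, so the groups do not separate inhibition of BRDT from that of its relatives, nor effects on germ cells from effects on other cells. Library totals ran from 9673587 to 98724982 UMIs. The R libraries had the highest totals, at 40582759, 48207277 and 98724982 UMIs, and VC-T 2 came next with 28341295. Depth therefore cannot be told apart from recovery in comparisons of R. Barcodes shared by a pair of libraries were at most 0.554% of the smaller library, and libraries held between 61 (UC 2) and 664 (VC-T 1) members.

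In pachytene, homologous chromosomes are held along their length by the synaptonemal complex while crossovers mature, and transcription of genes needed by the later haploid spermatid begins in bulk. BRDT, a reader of acetylated histones, is made from this stage on, and the transcription factor MYBL1 (A-MYB) drives many pachytene genes. The X and Y chromosomes are silenced in the same cells, and autosomal copies of X-linked genes take over some of their tasks.

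Short stretches of promoter show matches to motifs of pachytene and spermatid transcription factors at some of the genes that define or dominate these cells. The core of the MYB site was searched as AACNGNC and the core of the cAMP response element as TGACGT, both strands, in RefSeq promoters of GRCm38.p6 that reach from 250 bases before to 50 bases after a gene's start. Of 32851 promoters, 32.8% held the first and 7.51% the second. The motif is in capitals in each stretch of 30 bases, written 5′ to 3′ on the strand that carries it.
Pou5f2, chr13:78024708-78024737, plus strand, 183 bases before the start: gagttgaaaacAACGGTCaggacaggaggc
Ccna1, chr3:55055074-55055103, minus strand, 37 bases before the start: gaggctgctggAACCGGCcccctggaatct
Ldhc, chr7:46861191-46861220, plus strand, 61 bases before the start: ggcttgcgtgcTGACGTtgactttgtgacg
Pou5f2, a POU-domain transcription factor gene, is one of the late markers, Ccna1 encodes the cyclin A1 needed to enter the first division, and Ldhc, the germ-cell lactate dehydrogenase, was the most abundant transcript of the members. The Ldhc promoter held a second TGACGT 47 bases before the start, and the MYB core 214 and 153 bases before it. Pou5f2 and Ccna1 each held a second MYB core, 27 and 95 bases before their starts. Neither motif was in the windows of 4930581F22Rik, 4932702P03Rik, Tbpl1, Brdt or Paics, nor in another RefSeq entry of Ldhc. Chdh, also a late marker, held the MYB core in 1 of its 3 entries. The MYB core was also in a window of Slc8a1, Pgf, Vmn2r60 and Sumf2, which are not late markers. Of 16 genes looked up, 13 matched the RefSeq table, and Pabpc6, Cdk19os and 4930478M13Rik did not. A match describes the letters only.

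The late markers chose the cells, so their levels are a description. Levels are given in CPM, the UMIs of a gene summed over a library's members and scaled to a fixed library total. Pabpc6, a gene of the poly(A)-binding protein family, ranged from 296 in R 3 to 845 in VC-R 1, and Pou5f2 from 41.8 in R 3 to 180 in T 2. The R libraries gave 100, 77.0 and 41.8 CPM of Pou5f2, below the 140, 180 and 171 CPM of T and the 143, 148 and 142 CPM of UC. At the limit itself, libraries held 10 to 221 members with exactly 3 late-marker UMIs, and 45 to 668 cells that stayed outside with 2. Both extremes were UC 2 and R 3.

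Because a fixed number of UMIs is easier to reach in a cell with more RNA, members were also divided by density, that is, by late-marker UMIs per 10,000 UMIs of the cell. At 10 or more per 10,000, 2734 of the 3760 members (72.7%) were marker-dense. The marker-dense share was 79.5, 79.5 and 83.8% in T, 83.3, 56.8 and 69.4% in VC-T, 56.7, 52.9 and 46.9% in R, 74.4, 68.5 and 73.2% in VC-R and 67.3, 77.0 and 69.0% in UC. R and the library VC-T 2 stood apart with the lowest shares. They were also the libraries with the highest UMI totals, and the part of depth in these shares was not tested.

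Members below this density carried spermatid transcripts, and for them the data went against the label. Acrv1, which encodes an acrosomal vesicle protein, averaged 36.3 ± 33.8 CPM (SD, n = 15 libraries) in marker-dense members and 225 ± 77.4 CPM in the other members, and Tex36 averaged 39.8 ± 41.7 against 320 ± 100 CPM. Both were higher in the other members in 15 of 15 libraries. Sycp3, a protein of the chromosome axis, went the opposite way, at 348 ± 41.9 CPM in marker-dense and 183 ± 73.3 CPM in other members, and was higher in the other members in 0 of 15 libraries. Tbpl1, the TBP-like factor required in spermatids, was close in both at 745 ± 67.0 and 740 ± 114 CPM. These are descriptions, since the density was taken from the rule's own genes. 

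**Figure D1:**
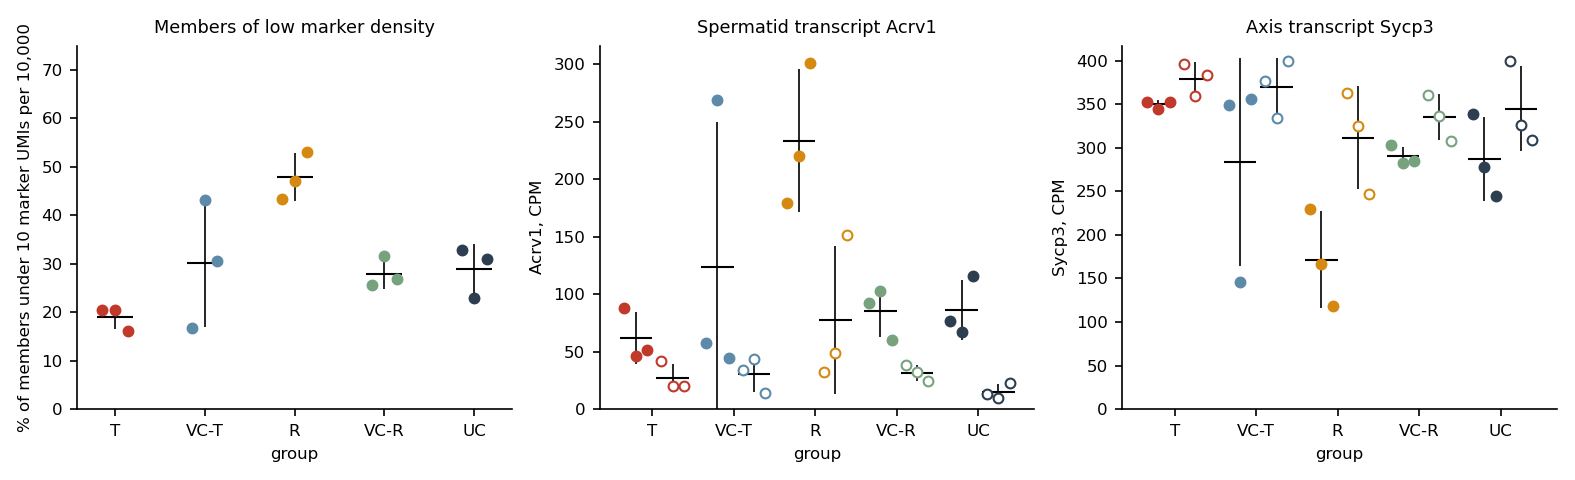
Each point is a library, with the group mean (horizontal line) and SD (vertical line): left, the percentage of members under 10 late-marker UMIs per 10,000, middle and right, CPM of Acrv1 and of Sycp3 in all members (filled) and in marker-dense members (open). The R libraries and VC-T 2 have the most members of low density, and open symbols lie lower than filled ones for Acrv1 and higher for Sycp3.

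RNA of late spermatids was also present in the member cells and differed between groups. The summed level of 11 late haploid markers, all of which were detected in each group, was 2561 to 3043 CPM in T, 2873 to 29244 in VC-T and 29498 to 61341 in R. VC-R lay at 14584 to 16603 CPM, and UC at 11148 to 28090 CPM. Hspb9, 1 of the 11 markers, averaged 2098 CPM in members, 1139 CPM in mid-pachytene cells and 1983 CPM in all other kept cells. The sums therefore also hold RNA that is not particular to late spermatids. Prm1, the protamine that packs sperm DNA, gave 115, 18.1 and 59.2 CPM in T and 7218, 2335 and 3778 CPM in UC. The vehicle library VC-T 1, which the study left out of its own tests as an outlier, had 72.8 CPM of Prm1, within the range of T, against 8395 and 4994 CPM in VC-T 2 and VC-T 3. Sertoli cell markers summed to 20.3 to 23.9 CPM in T and 108 to 289 CPM in R. The controls spanned 16.0 to 290 CPM (VC-T), 30.7 to 219 CPM (VC-R) and 16.2 to 119 CPM (UC), so R overlapped each of them. Macrophage marker sums reached 0.373 CPM in T and ran from 14.6 to 43.8 CPM in R, while the highest control values were 4.72 (VC-T), 3.47 (VC-R) and 27 CPM (UC). Leydig marker sums reached 792 CPM in R and 342 CPM in VC-T. Marker sums for spermatogonia stayed between 18.0 and 46.4 CPM in all groups.

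Compared with cells on the mid-pachytene side, members held less RNA of the machinery that pairs chromosomes. Levels here are means of library CPM over 15 libraries and carry no test, since the same cells' transcripts fixed the stages. Of 13 synaptonemal complex and axis genes with at least 5 CPM, 9 were lower in members than in mid-pachytene cells in every library and 1 was higher in every library, where 2471 and 1814 of all 10560 genes were. In marker-dense members the counts were 10 and 1, beside 1754 and 1262 of all genes. Sycp1, the transverse filament of the complex, was at 852 CPM in mid-pachytene cells, 222 CPM in members and 203 CPM on the division side. In UC alone, Sycp1 was at 808 ± 104, 215 ± 45.2 and 186 ± 29.3 CPM (SD, n = 3). Syce1, a central element gene, did not share this order, at 551, 641 and 723 CPM. Of 9 crossover genes, 6 were lower than in mid-pachytene cells in every library and 0 were higher.

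More genes for entry into division were higher in members than were lower. Of 15 such genes, 7 were higher in members than in mid-pachytene cells in every library and 3 were lower, beside 1814 and 2471 of all 10560 genes. In marker-dense members 5 were higher and 1 was lower, beside 1262 and 1754 of all genes. Ccna1 was at 37.7 CPM on the mid-pachytene side, 185 CPM in members and 269 CPM on the division side. Plk1, a kinase of the division spindle, was at 10.1, 62.2 and 94.2 CPM. Hspa2, the chaperone of the CDK1 and cyclin B1 pair, was abundant throughout at 1353, 1098 and 1194 CPM and was lower in members than in mid-pachytene cells in 15 of 15 libraries.

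Most genes of the small-RNA machinery were lower in members than in mid-pachytene cells, and most acrosome genes were higher over all members. Of 20 genes of the piRNA pathway, which silences transposons in germ cells, 15 were lower than in mid-pachytene cells in every library and 2 were higher, with a median ratio of 0.550. In marker-dense members 11 were lower and 2 higher, with a median ratio of 0.647. Of all 10560 genes, 2471 were lower and 1814 higher, and in marker-dense members 1754 and 1262. Tdrd1, a scaffold of piRNA granules, was at 294, 103 and 92.2 CPM, while Mael fell less, at 603, 503 and 542 CPM. In marker-dense members Mael was at 536 CPM and below its mid-pachytene level in 15 of 15 libraries. Of 19 acrosome genes, 13 were higher in every library and 1 was lower, with a median ratio of 2.16 beside 1.01 over all genes. In marker-dense members 5 of the 19 were higher in every library and 0 were lower, with a median ratio of 1.12 beside 0.932. Zpbp2, which helps shape the sperm head, was at 261, 563 and 654 CPM, and at 569 ± 44.8 CPM in marker-dense members. By contrast, Acrv1 was at 34.8, 118 and 48.5 CPM and highest in all other kept cells at 257 CPM. In marker-dense members Acrv1 was at 36.3 CPM, near its mid-pachytene level, and Spaca1 and Lyzl6, also acrosome genes, were at 61.3 and 30.5 CPM against 342 and 185 CPM in the other members.

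Regulators of transcription were mixed as lists. Of 15 transcription regulators, 3 were lower and 4 higher in every library (median ratio 0.947), and of 9 BET and P-TEFb genes, 3 were lower and 1 was higher (1.02). Of all 10560 genes, 2471 were lower and 1814 higher (1.01). Brdt was at 285 CPM in mid-pachytene cells, 168 in members and 171 on the division side. It was lower in members than in mid-pachytene cells in 15 of 15 libraries. Tbpl1 was at 410, 734 and 877 CPM, and Hist1h1t, the testis linker histone of spermatocytes, at 275, 93.0 and 82.6 CPM. Of 9 testis histone genes, 5 were lower in every library and 0 were higher. In marker-dense members the counts were 6 and 0, beside 1754 and 1262 of all genes.

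**Figure D2:**
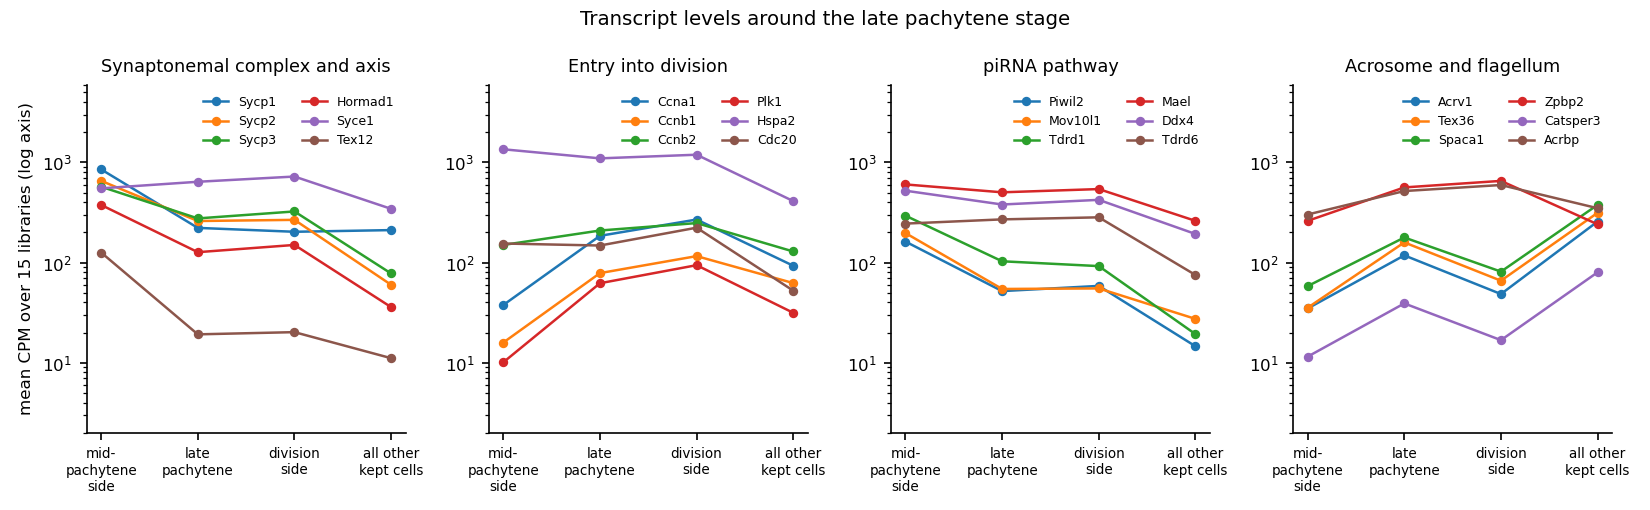
Lines join the mean CPM over 15 libraries (log axis) of named genes in mid-pachytene cells, late pachytene members, division-side cells and all other kept cells, in 4 gene groups. Sycp1 drops from 852 to 222 CPM into the members while Ccna1 climbs from 37.7 to 185 CPM.

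Most autosomal copies of silenced X-linked genes were more abundant than their parents. Each UMI is 1 molecule counted at its 3′ end, so levels of different genes do not scale with their length. In 7 of 9 pairs the copy was higher than the parent in every library. Pgk2, the autosomal phosphoglycerate kinase, was at 286 CPM in members, while its X-linked parent Pgk1 was at 3.67 CPM. Pdha2 was at 200 CPM and Pdha1 at 0.167 CPM, and Cetn1, a centrin of the basal body, was at 1663 CPM with Cetn2 at 4.84 CPM. The exceptions were Utp14b at 17.5 against Utp14a at 5.63 CPM, higher in 13 of 15 libraries, and Cstf2t at 13.3 against Cstf2 at 10.7 CPM, higher in 10 of 15. These are mean levels over 15 libraries.

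The share of late pachytene cells among staged spermatocytes did not separate T from its controls. Among staged spermatocytes, members made up 22.2, 25.2 and 27.1% in T and 24.8 ± 2.44% on average (SD, n = 3), against 26.2 ± 2.69% in the 6 libraries of UC and VC-T (range 21.3 to 29.1%). The ranges overlapped, and a two-sided exact permutation test, which can go no lower than 0.0238 in this design, gave p = 0.452. In R the share was 15.8, 21.2 and 26.3%, against 24.7 ± 3.71% in UC and VC-R (p = 0.310, exact permutation). Both differences depended on the choices behind them. For R it was −6.19 points in marker-dense members (p = 0.0714, exact permutation), −8.20 with at least 5 late-marker UMIs (p = 0.0238, exact permutation) and 3.11 after thinning each cell to 2000 UMIs. For T it was 0.0314 points in marker-dense members. Of all kept cells, members were 11.9 ± 2.60% in T and 4.37 ± 3.51% in UC and VC-T (p = 0.0476, exact permutation). The control library VC-T 1, at 11.4%, lay within the T range of 8.95 to 13.8%. That denominator holds all cell types, so the share also moves when other cells become fewer. The part of this in the difference was not tested. After the thinning the share of staged spermatocytes was 35.9% in T and 44.0% in UC and VC-T (p = 0.0476, exact permutation).

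The number of genes detected per cell at equal depth was above that of the controls in T. At a fixed 2000 UMIs, members held 1321 ± 6.60 genes in T and 1279 ± 19.1 in UC and VC-T (SD, n = 3 and 6), and the T libraries lay at 1315 to 1328 above all 6 controls (p = 0.0238, exact permutation, the smallest possible). Across the 8 comparisons of this kind the adjusted p was 0.0952. In marker-dense members the difference was 27.1 genes (p = 0.0714, exact permutation). In R the count was 1277 ± 27.7 against 1279 ± 13 in UC and VC-R (p = 0.833, exact permutation), but in marker-dense members R was 24.1 genes above (p = 0.0476, exact permutation). Late haploid RNA, as the marker sum that includes Hspb9, was lower in T than in UC (2561 to 3043 against 11148 to 28090 CPM). VC-T 1, a control library with as little Prm1 as T, was the highest control with 1310 genes. The part of late haploid RNA in the difference was not tested. Between 3.09 and 29.5% of a library's members had fewer than 2000 UMIs and were left out. Median UMIs per member did not separate the groups, at 5058 ± 818 in T against 6269 ± 1754 (p = 0.357, exact permutation) and 5990 ± 1017 in R against 6647 ± 1566 (p = 0.548, exact permutation).

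**Figure D3:**
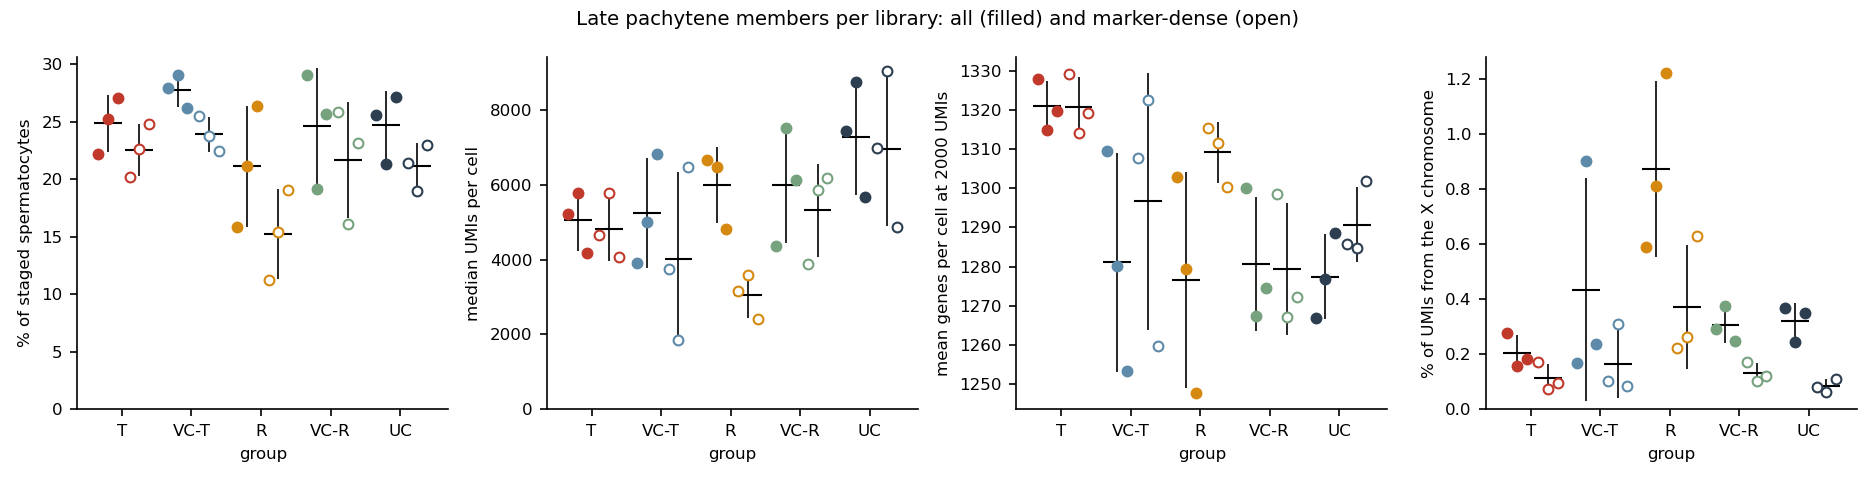
For each library, all members (filled) and marker-dense members (open) with group mean and SD: share of staged spermatocytes (%), median UMIs per cell, mean genes per cell at 2000 UMIs, and percent of UMIs from the X chromosome. In all members, the 3 T libraries lie above the 6 UC and VC-T libraries only for genes per cell, and the 3 R libraries above the 6 UC and VC-R libraries only for the X-linked percentage.

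The treatment's effect on transcript levels was tested on UMIs summed per library, in T against UC. A call needed a change of more than 1 on the log2 scale with an adjusted p below 0.05 (edgeR, quasi-likelihood, Benjamini-Hochberg over all genes). Of 9005 genes, 421 were called (4.68%), of which 50 were higher (0.555% of genes tested) and 371 lower (4.12%) in T. Without T 1 the count was 663. Among the lower genes, 363 had more CPM in all other kept cells than in members. Of all 9005 genes tested, 6600 had at least as many CPM in members. Late haploid transcripts led this set, with 9 of 11 markers called lower, at a median log2 fold change of −2.39 beside −0.01 over all genes tested. Spem1, needed to shed spermatid cytoplasm, was at 4.48, 0.936 and 4.08 CPM in T and 90.4, 25.2 and 38.5 CPM in UC (log2 fold change −4.28 ± 0.52 SE, adjusted p = 0.000225). H2al2a, a spermatid histone variant with close relatives in its family, was at 14.5, 4.06 and 3.4 CPM in T and 197, 75.7 and 105 CPM in UC (−4.17 ± 0.43, adjusted p = 6.7e-05). Gapdhs, the sperm glyceraldehyde phosphate dehydrogenase, was at 109, 77.7 and 66.7 CPM in T and 533, 330 and 371 CPM in UC (−2.39 ± 0.19, adjusted p = 1.5e-05).

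T and UC did not overlap for these 3 genes, and VC-T 1 sat with T. In VC-T 1, Spem1 was at 2.60 CPM, H2al2a at 5.20 CPM and Gapdhs at 85.0 CPM, so the levels seen in T also occurred in a library without JQ1 that had little late haploid RNA. The part of free RNA from spermatids in these differences was not tested. When the same test was made in marker-dense members, 89 of 7606 genes (1.17%) were called, 28 higher and 61 lower, and 77 of these were also called in all members.

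The counts for gene lists of spermatocyte processes in T against UC stand beside the 4.68% called over all genes. No gene was called in either direction among 13 synaptonemal complex genes (median log2 fold change 0.13), 10 crossover genes (0.25), 13 transcription regulators (−0.03), 9 BET and P-TEFb genes (−0.02), 15 division genes (0.00), 20 piRNA genes (0.09) and 23 flagellum genes (−0.12). Among testis isoenzymes, 2 of 16 fell, Gapdhs and Acsbg2. Among testis histones, 3 of 9 fell, H2al2a, H1fnt and Hils1, and all of these are spermatid genes. Of 11 heat shock genes, 1 fell, Hspa1l, and of 19 acrosome genes, 1 fell, Spaca9. Of the autosomal copies of X-linked genes, 1 of 9 fell, Ubl4b, which is also mainly a spermatid transcript. Of 13 tested genes that the study itself had listed as bound by BRDT and changed in spermatocytes, a choice made on these samples, 1 rose and 4 fell, with a median of −0.55 in all members and 0.40 in marker-dense members. Cox6b2, the sperm cytochrome oxidase subunit, and Ldhc had adjusted p of 0.000211 and 0.00949 with log2 fold changes of −0.52 ± 0.06 and −0.24 ± 0.05, short of the fold limit.

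**Figure D4:**
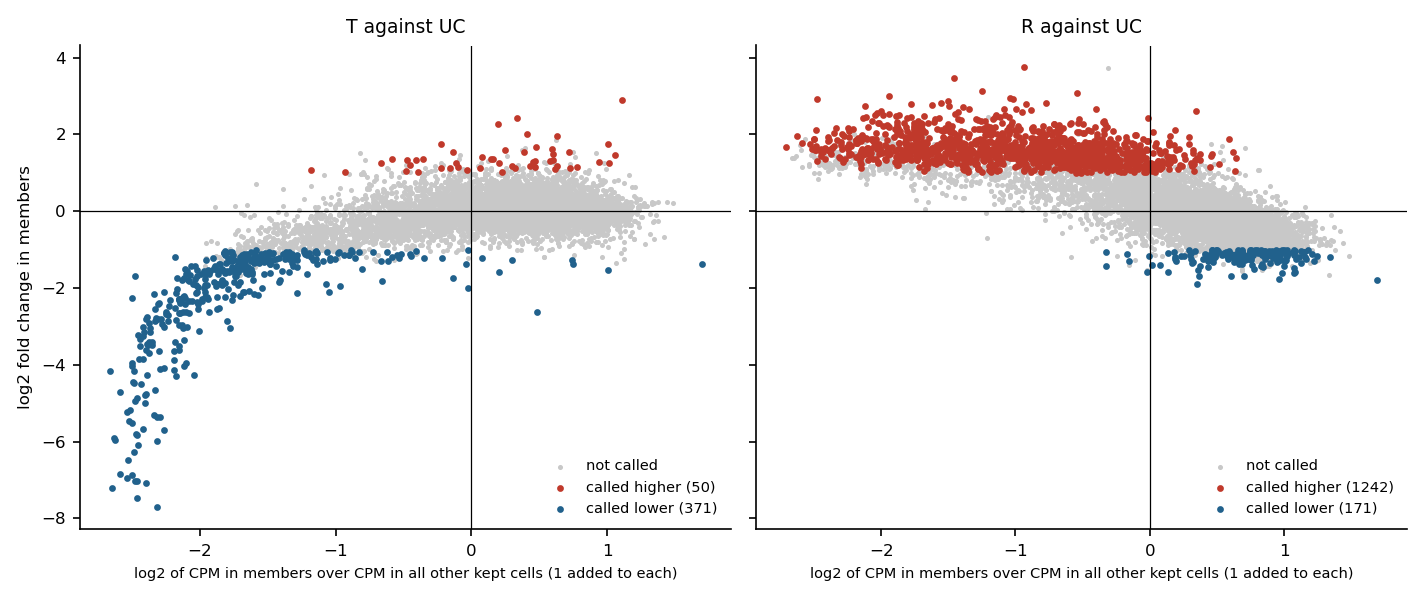
Each point is a gene: the x axis gives log2 of its CPM in members over its CPM in all other kept cells (1 added to each), the y axis its log2 fold change in members for T against UC (left) and R against UC (right), with called genes coloured. The blue points on the left (lower in T) and the red points on the right (higher in R) lie mostly left of 0, at genes with more RNA in other cells.

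Only 41 called genes had at least as many CPM in members as in other cells, 33 higher and 8 lower in T. When the test was limited to 6600 genes of this kind, 16 were called (0.242%), 12 higher and 4 lower, and in marker-dense members 20 of 6115 (0.327%), 11 higher and 9 lower, with 11 genes called in both. By abundance, 3 of these genes stood out under the rule for naming genes. Slc8a1, a sodium-calcium exchanger, was at 67.5, 86.4 and 85.7 CPM in T and 29.4, 37.9 and 33.5 CPM in UC, a 2.21-fold increase (log2 1.14 ± 0.18, adjusted p = 0.00128). All 3 T libraries exceeded the other 12, of which the highest was VC-R 1 at 53.6 CPM. The log2 fold change was 1.27 in marker-dense members.

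Cdk19os, an RNA gene antisense to the kinase gene Cdk19 (chr10:40348508-40350103, minus strand, GRCm38), fell 2.42-fold. It was at 23.9, 25.6 and 22.5 CPM in T and 52.9, 63.1 and 48.7 CPM in UC (log2 −1.28 ± 0.18, adjusted p = 0.000558). T lay below all 12 other libraries, where the lowest was R 1 at 32.1 CPM. The sources used here do not say whether counting used the strand, so reads from the partner gene cannot be told apart. mt-Nd4l, a mitochondrial subunit of complex I, was at 87.6, 87.7 and 87.1 CPM in T and 34.1, 23.4 and 44.6 CPM in UC (log2 1.18 ± 0.18, adjusted p = 0.00122), but its VC-T levels of 59.4, 60.1 and 75.2 CPM gave only 0.18 ± 0.17 against VC-T 2 and 3, and in marker-dense members T against UC was 0.91.

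A few genes of lower abundance had larger folds and are named after their values were seen. 4930478M13Rik, an antisense RNA gene (chr15:100105234-100108161, minus strand, GRCm38), was at 7.83, 5.30 and 3.4 CPM in T and 38.8, 27 and 32.5 CPM in UC, a fall of 6.16-fold (log2 −2.62 ± 0.30, adjusted p = 0.000151). Its lowest level in the 12 libraries outside T was 23.6 CPM in VC-T 2. VC-T 1, low in late haploid RNA like T, had 40.1 CPM. In R it was at 35.0, 33.9 and 25.8 CPM, with a log2 fold change of 0.02 ± 0.23 against UC.

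Paics, an enzyme of purine synthesis, was at 16.0, 16.2 and 10.9 CPM in T and 32.9, 41.5 and 33.5 CPM in UC, a fall of 2.58-fold (log2 −1.37 ± 0.23, adjusted p = 0.00204). It was at 34.5 CPM in VC-T 1 and at 22.6 CPM or more in all 12 libraries outside T. Vmn2r60, a gene of the large vomeronasal receptor family whose members have similar sequences, was at 33.9, 25.9 and 33.3 CPM in T and 4.70, 3.61 and 3.04 CPM in UC (log2 2.89 ± 0.33, adjusted p = 0.00016). The UC values rest on 4, 2 and 3 UMIs, and the ratio of summed UMIs, with a 95% interval for counting error only, was 8.06 (4.17 to 17.9). In the other libraries Vmn2r60 reached 12.0 CPM, in VC-T 3.

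Sumf2, a protein of the endoplasmic reticulum, gave 16.8, 18.4 and 27.2 CPM in T and 4.70, 1.80 and 6.09 CPM in UC, with a ratio of summed UMIs of 4.26 (2.31 to 8.72). Pgf, placental growth factor, was the gene of the study's BRDT-bound list that rose, at 14.9, 15.9 and 18.4 CPM in T and 3.52, 3.61 and 4.06 CPM in UC (log2 1.97 ± 0.36, adjusted p = 0.00394). Its ratio of summed UMIs, 118 in T and 9 in UC before scaling, was 4.26 (2.17 to 9.55). T did not overlap the other 12 libraries for either gene.

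Neither Brdt nor its relatives Brd2 and Brd3 were called in either direction. Brdt was at 245, 226 and 225 CPM in T, 184, 140 and 153 CPM in VC-T and 164, 157 and 157 CPM in UC. The T libraries were above all 12 others, with a log2 fold change of 0.42 ± 0.09 against UC (adjusted p = 0.0100, short of the fold limit) and 0.46 ± 0.13 against VC-T 2 and 3 (adjusted p = 0.179). In marker-dense members the value against UC was 0.34 ± 0.10 (adjusted p = 0.0874). Brd2 gave a log2 fold change of 0.05 (adjusted p = 0.790) and Brd3 −0.18 (0.254).

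**Figure D5:**
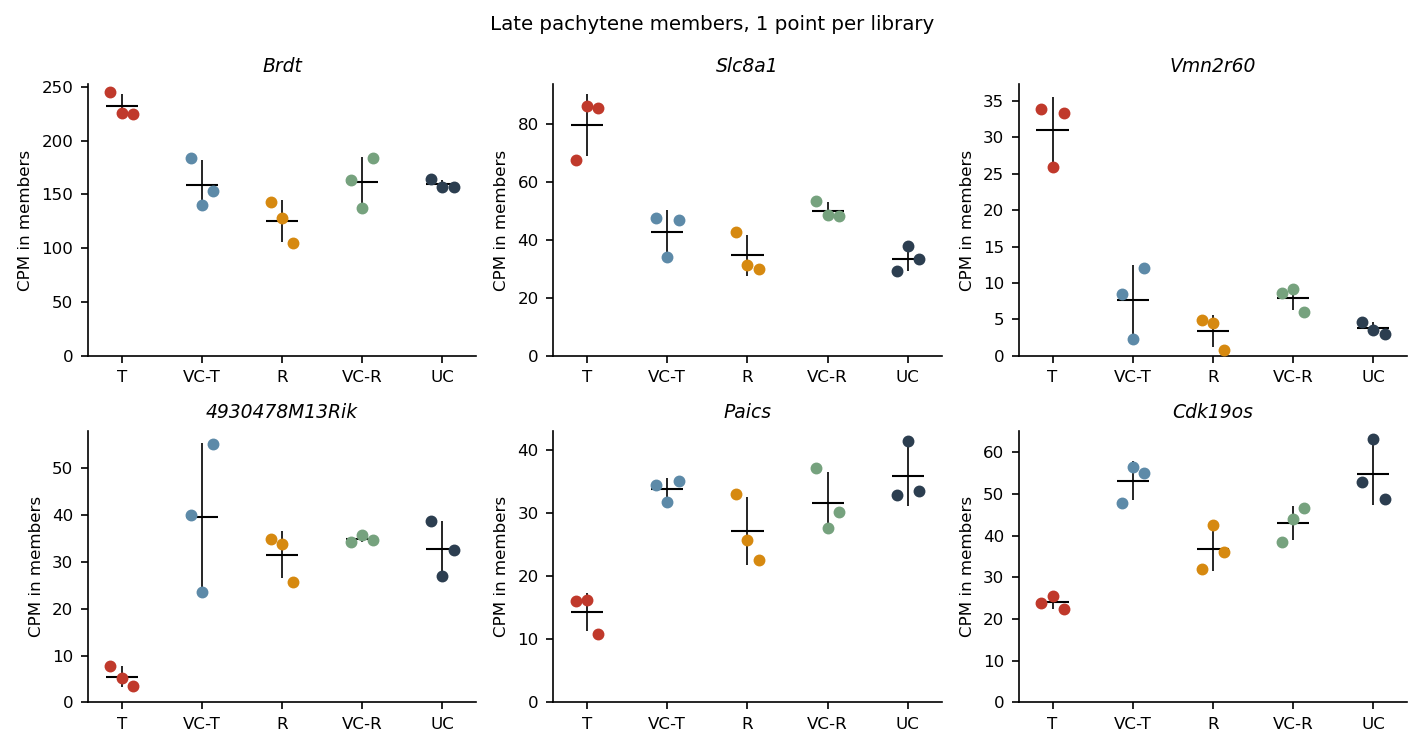
CPM in members of Brdt, Slc8a1, Vmn2r60, 4930478M13Rik, Paics and Cdk19os, 1 point per library, with group mean and SD. The 3 T libraries lie above the other 12 for Brdt, Slc8a1 and Vmn2r60 and below them for 4930478M13Rik, Paics and Cdk19os.

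The vehicle control gave the age-matched comparison. T was tested against VC-T 2 and VC-T 3, since the study excluded VC-T 1, and 48 of 10017 genes were called (0.479%), all lower in T and all with more CPM in other cells. Among genes at least as high in members, edgeR called 0 of 7019, with 816 at an unadjusted p under 0.05. DESeq2, run on all genes, called 398. The values for the named genes were −1.41 ± 0.20 for Cdk19os (adjusted p = 0.0596), −2.96 ± 0.47 for 4930478M13Rik (0.0738), −1.39 ± 0.27 for Paics (0.114), 0.77 ± 0.22 for Slc8a1 (0.193) and 1.86 ± 0.54 for Vmn2r60 (0.193). In marker-dense members, 9 of 8870 genes were called (0.101%). Within the 6735 genes at least as high in members, 1 was called there (0.0148%), 4930478M13Rik, with a log2 fold change of −3.43 ± 0.37 and an adjusted p of 0.00434 over all genes. With VC-T 1 included, 0 genes were called and 732 had an unadjusted p under 0.05. Without VC-T 3 the count was 3177, without VC-T 2 it was 175, and without any 1 of the T libraries it was 0.

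At 6 weeks after the last dose, most genes that rose in the members were genes with more RNA in other cells. R against UC called 1413 of 8660 genes (16.3%), 1242 higher (14.3%) and 171 lower (1.97%). More CPM in other cells were found for 1169 of the higher genes, while 165 of the lower genes had at least as many CPM in members. Of all 8660 genes tested, 5984 had at least as many CPM in members. UC is the same 3 libraries as in the T comparison. Of 19 acrosome genes, 9 rose, with a list median of 1.32 beside −0.05 over all genes. Acrv1 was at 179, 220 and 301 CPM in R and 76.3, 66.7 and 116 CPM in UC (log2 1.56 ± 0.30, adjusted p = 0.0288), and Izumo1, the sperm protein that binds the egg, at 41.9, 62.8 and 67.3 against 25.8, 10.8 and 22.3 CPM (1.64 ± 0.35, adjusted p = 0.0288). Of 23 flagellum genes, 4 rose, among them Catsper3, a channel subunit of the sperm tail (1.59 ± 0.28, adjusted p = 0.0288). R did not overlap UC for these genes.

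Most genes that fell had at least as much RNA in members as elsewhere, as did 5984 of the 8660 genes tested. Ufl1, the ligase of the UFM1 modifier, was at 56.5, 48.1 and 26.4 CPM in R and 113, 132 and 106 CPM in UC, a fall of 2.58-fold (log2 −1.37 ± 0.24, adjusted p = 0.0288). Fignl1, which acts in meiotic recombination, fell 2.42-fold from 63.4, 61.3 and 57.8 CPM in UC to 33.1, 24.8 and 15.7 CPM in R. Rassf1, U2af1 and Lsm3, the last 2 of the splicing machinery, fell by 1.15, 1.18 and 1.06 on the log2 scale, each with an adjusted p of 0.0288. The lists for the synaptonemal complex (1 higher of 13, Syce2), crossovers (0 of 7, median −0.77), division entry (0 of 15, median 0.07) and the piRNA pathway (0 of 19, median −0.33) stand beside the 16.3% called over all genes. Syce2, although a synaptonemal complex gene, had its highest mean level, 334 CPM, outside the staged spermatocytes.

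R also had the lowest marker density, and far fewer genes passed the test in marker-dense members. There, 82 of 6458 genes were called (1.27%), all higher and 80 of them with more CPM in other cells, and no acrosome gene was called of 16. The log2 fold change was −0.53 ± 0.16 for Ufl1 (adjusted p = 0.109), −0.35 ± 0.20 for Fignl1 (0.465) and 2.41 ± 0.61 for Acrv1 (0.066). Among genes at least as high in members, edgeR called 0 of 5984 in all members and 0 of 5218 in marker-dense members, with 1729 and 382 at an unadjusted p under 0.05. DESeq2 on all genes called 1542. The count for R against UC was also 0 without R 2, UC 1, UC 2 or UC 3, 855 without R 3 and 2762 without R 1.

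Against its own vehicle control, R called 1774 of 9246 genes (19.2%), 1682 higher (18.2%) and 92 lower (0.995%), of which 1624 of the higher genes had more CPM in other cells. Acrosome genes rose in 10 of 19, with a median of 1.53. Ufl1 fell by 1.04 and Fignl1 by 1.07 on the log2 scale (adjusted p = 0.0265 and 0.0205). In marker-dense members edgeR called 0 of 6568 genes, with 716 at an unadjusted p under 0.05. Among genes at least as high in members it called 0 of 6292, with 1310 at an unadjusted p under 0.05. The count over all genes was 0 without VC-R 1 or VC-R 3, 827 without R 2 and 2930 without R 1.

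Transcripts of X-linked genes were scarce in all groups and most frequent in R. They made up 0.205 ± 0.0630% of member UMIs in T, 0.435 ± 0.405% in VC-T, 0.321 ± 0.0655% in UC, 0.305 ± 0.0642% in VC-R and 0.874 ± 0.321% in R (SD, n = 3 each). Cells with at least 3 spermatogonial marker genes, whose X chromosome is active, held 1.80 to 1.99% by group mean. The R libraries (0.590 to 1.22%) lay above all 6 of UC and VC-R (p = 0.0238, exact permutation, adjusted 0.0952 over 8 comparisons), also in marker-dense members at 0.372 ± 0.225 against 0.108 ± 0.0376% (p = 0.0238, exact permutation). T overlapped UC and VC-T (p = 0.214, exact permutation), and in marker-dense members its difference was −0.0121 points (p = 0.976, exact permutation). By gene, 26 of 83 tested X-linked genes fell in T against UC, with a median log2 fold change of −0.48, beside 4.12% of all genes, and 1 of 15 tested in marker-dense members. In R against UC, 83 of 118 rose, with a median of 1.53, beside 14.3% of all genes. In marker-dense members 6 of 19 rose, beside 1.27% of all genes called. Of 1084 X-linked genes, the low-count filter passed 83 for T against UC and 118 for R against UC. It can admit a gene expressed in UC alone or in R alone. In R all 118, and all 19 in marker-dense members, had positive log2 fold changes. The shares, directions and medians of X-linked genes in both comparisons are therefore a description. The list of X-linked genes was chosen after its values were seen. The leading X-linked transcripts of the members were Tsga8 at 225 CPM, Slxl1 at 156 CPM and Akap4, a sheath protein of the sperm tail. Tsga8, Slxl1 and Akap4 were higher in all other kept cells, at 470, 272 and 843 CPM. R was also highest on the mid-pachytene side, at 0.298 ± 0.147% against 0.187 ± 0.0714% in UC and 0.170 ± 0.0398% in VC-R. On the division side R was at 0.253 ± 0.0408% against 0.152 ± 0.0443% in UC and 0.213 ± 0.0502% in VC-R. Late haploid marker sums in members were likewise highest in R, at 29498 to 61341 CPM. Their part in the X-linked percentage was not tested.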

How the data were processed

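The deposited files are matrices of unnormalized UMI counts, genes by cell barcodes, for 15 libraries. The authors made these counts with Cell Ranger on mm10. The submitters' processing notes name version 3.0.0, the file headers name another version, and whether intron reads were counted is not given in the sources used here. Kept cells had 500 or more genes, 1000 or more UMIs and no more than 30% mitochondrial UMIs (Python 3.11.15, Scanpy 1.11.5, SciPy 1.17.1). Doublets were kept, and an alternative removed the top 5.4% of each library by doublet score. Groups were taken from the sample labels.

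UMIs of members were summed per library and tested with edgeR 4.0.16 in R 4.3.3 (low-count filter, TMM, quasi-likelihood test, Benjamini-Hochberg adjustment over all genes of a comparison). Calls needed a log2 fold change beyond 1 in either direction with an adjusted p below 0.05. DESeq2 1.42.0 was an alternative. The 16 genes of the rule were left out of calls. Each library came from a separate mouse, so p-values measure the spread between mice. Single values were compared by two-sided exact permutation over libraries. Intervals cover counting error only.

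Genes were named if called, without overlap between the groups, at 50 CPM or more in the higher group and at least as high in members as in other cells (up to 10 each way by adjusted p), with members of gene lists and the BET genes. A gene of these is not reported here. The members and lists were chosen with earlier results of these data known, and the marker-dense alternatives after seeing the data. On simulated counts for T against UC (8764 genes), 92% of genes changed by 1.5 and 100% of those changed by 2.5 on the log2 scale were recovered, with 9 false calls. The simulation gave every gene the same spread between libraries and changed only more abundant genes. These figures therefore do not carry over to rarer genes or to libraries that differ more. Gene positions are from GENCODE vM21 (GRCm38).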

Additional observations from a re-analysis of the deposited data

Results flagged for a closer look

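The X-linked percentage of member UMIs differed from its vehicle control in opposite directions at the 2 times. T was 0.230 points below VC-T and R was 0.570 points above VC-R, a difference of −0.799 points (p = 0.0300, exact permutation). Libraries were relabelled separately within each contrast, giving 400 combined splits and a smallest possible p of 0.00500. The permutation assumes no difference in either contrast. A difference in R alone can therefore give a low p, and the test does not show that the 2 directions differ. In marker-dense members the difference was −0.292 points (p = 0.0500, exact permutation). The T side rests on VC-T 2, with 0.901%. VC-T 1 (0.166%) and VC-T 3 (0.238%) lie either side of the T mean of 0.205%. Against UC and VC-T together, T in marker-dense members differed by −0.0121 points (p = 0.976, exact permutation).

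For 7 genes, all 3 T libraries lay below and all 3 R libraries above the mean of the UC libraries. The log2 fold change for T less that for R was −3.64 for Akap1, −3.52 for Gapdhs, −4.43 for H1fnt, −2.93 for Hils1, −3.47 for Prdx4, −2.69 for Spaca9 and −4.36 for Ubl4b. These differences were not tested, and both comparisons share the UC libraries. Late haploid marker RNA in the members moved the same way, at most 3043 CPM in T and at least 29498 CPM in R with UC between 11148 and 28090 CPM, and its part in these values was not tested.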

How the results depend on the processing

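The number of changed genes depended on which cells, genes and libraries entered. For T against UC (421 genes) the count was 728 without the low-count filter, 208 in a joint fit of 14 libraries, 168 with members of at least 5 late-marker UMIs, 156 with equal cells per library, 16 among genes at least as high in members, 89 in marker-dense members and 20 with both limits. For R against UC (1413) the same choices gave 2598 without the filter, 1401 in the joint fit and 0 at 5 UMIs (2016 at an unadjusted p under 0.05). They gave 1126 with equal cells, 0 among genes at least as high in members, 82 in marker-dense members and 0 with both limits. For T against VC-T 2 and 3 (48) they gave 855, 469, 5, 8, 0, 9 and 1, DESeq2 gave 398, removal of doublets 28 and inclusion of VC-T 1 gave 0. For R against VC-R (1774) the same choices gave 2683 without the filter, 1739 in the joint fit, 0 at 5 UMIs (1943) and 1378 with equal cells. The count was 0 among genes at least as high in members, 0 in marker-dense members and 0 with both limits. Leaving out 1 library moved these counts to 287 to 663 (663 without T 1), 0 to 2762 (855 without R 3), 0 to 3177 (175 without VC-T 2) and 0 to 2930 (827 without R 2).

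The T difference in share (−1.35 points) was 1.98 at 5 UMIs, 0.0314 in marker-dense members, 7.55 of all kept cells (p = 0.0476, exact permutation), −8.11 after thinning (p = 0.0476, exact permutation) and 0.175 against UC alone, and −2.46 to −0.0449 with 1 library left out. That for R (−3.55) was −8.20 (p = 0.0238, exact permutation) at 5 UMIs and 3.11 after thinning, and −6.17 to −0.907. Median UMIs for R (−657) was 660 at 5 UMIs, −3094 in marker-dense members, where the density divides by the cell's own UMIs and no test applies, and 2020 with means, and −1112 to −72.2. For T it was −1683 to −713. Genes per cell for T (41.7) was 27.1 in marker-dense members (p = 0.0714, exact permutation), 43.5 against UC alone (p = 0.100, exact permutation, the smallest possible) and 36.5 to 47.7, with p at the smallest value each reduced design allows (0.0357 or 0.0714, exact permutation). For R (−2.45) it was 16.0 at 5 UMIs, 3.21 without doublets, 24.1 in marker-dense members (p = 0.0476, exact permutation) and −15.6 to 12.0. The X-linked difference for R (0.561 points) was 0.553 against UC alone (p = 0.100, exact permutation) and 0.388 to 0.704, and that for T −0.215 to −0.0679. Causes were not tested. Of 280 alternative values for 18 named genes called in T, 260 kept their call and 20 lost it (Acsbg2, Hils1, Prdx4, Spaca9 and mt-Nd4l). Of 674 values for 44 genes called in R, 318 lost it. None changed sign.

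Replicate numbers did not pair the libraries, since same-numbered deviations correlated at 0.164, 0.194 and −0.0823 for T and UC and at −0.265, 0.0734 and 0.181 for R and UC, and within T and VC-T at −0.435 and 0.200. With a replicate block the counts were 458, 1198, 54 and 1515. UC libraries held 61 to 145 members and 4 or fewer UMIs of Vmn2r60 or Pgf each, which limits the folds of rare genes.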
